A study of Mus musculus with 18 samples.

Results

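Livers of control mice fed fish/fungal oil were compared with livers of control mice fed canola oil. The members are the arrays whose titles name these feeds and the control genotype, which gave 6 of the 18 arrays of the series, 3 for each oil. Each array carried RNA pooled from 3 mice, so 9 mice stand behind each group, and the pool is the replicate throughout. Nothing in the labels ties pools to litters or days, so p-values measure only the spread between pools.

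The series examined how dietary fat acts on the liver with and without hepatic cytochrome P450 reductase (Por), the enzyme that passes electrons to microsomal P450s. All mice were male and were killed at 12 weeks of age after a 4 h fast, having eaten a synthetic diet based on AIN-93G since weaning at 4 weeks, that is for 8 weeks. The control genotype, Alb-Cre-/-/POR-lox+/+, carries both floxed Por alleles and no Cre, and the knockout, Alb-Cre+/-/POR-lox+/+, deletes them through Cre driven by the albumin promoter, which is active in hepatocytes. The fish/fungal diet held 3.27% ARASCO oil and 2.73% menhaden oil, the canola diet 6% canola oil and the third diet 6% lard, according to the series text, while sample labels give 7% fat. All diets also contained 0.025% cholesterol and some sodium cholate, so that neither group was free of dietary sterol. No probe set was named for Por, and the deletion itself is not analysed here.

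Menhaden oil is rich in the long-chain polyunsaturated fatty acids EPA and DHA, and ARASCO is a fungal oil rich in arachidonic acid. Canola oil is mostly oleic acid and supplies the shorter precursors, linoleic and α-linolenic acid, from which liver makes the long-chain acids by desaturation and elongation. SREBP transcription factors drive the genes of fatty acid and cholesterol synthesis in liver, and long-chain polyunsaturated fatty acids are known to lower the activity of the form that serves fatty acid synthesis. The comparison therefore sets livers given the end products of the desaturation pathway against livers given its substrates.

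Values are RMA expression values on a log2 scale, 1 unit being a 2-fold step, and were deposited by the authors. Array medians lay between 5.229 and 5.286. Across the 12578 genes tested, pairs of arrays within the 2 groups correlated at 0.98899 to 0.99288, against 0.98392 to 0.9922 for pairs between the groups. The defining markers of liver were near the top of the scale in all 6 pools. Albumin (Alb) lay at 14.64, 14.70 and 14.66 in fish/fungal pools and at 14.64, 14.68 and 14.66 in canola pools. The summed linear level of 11 hepatocyte markers ran from 166800 to 170600 in fish/fungal pools and from 161500 to 171800 in canola pools. RNA came from whole liver, and fewer cells of a type cannot be told apart from less RNA per cell.

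Most of the genes that passed the test were lower with fish/fungal oil than with canola. Of 12578 genes tested, 33 passed an adjusted p of 0.05 in limma's test (Benjamini-Hochberg adjustment), which is 0.262% of the genes tested. Levels of 28 genes (0.223%) fell and those of 5 (0.0398%) rose. The falls were led by Mfsd2a, Fads1, Apoa4, Elovl5, Fads2 and Fdps, genes of polyunsaturated fatty acid transport and synthesis, of lipoproteins and of the sterol pathway. Of the called genes, 16 were at least 2-fold lower and 1, Obp2a, was at least 2-fold higher. At an unadjusted p of 0.05 the balance was different, with 379 genes (3.01%) lower and 447 (3.55%) higher. In all 33 called genes the 3 fish/fungal pools did not overlap the 3 canola pools, a pattern seen in 11% of all genes tested. The number of calls was 21 without canola pool 2 and 19 without canola pool 3, and 15 of the 33 were kept whichever of the 6 pools was left out.

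The enzymes that make long-chain polyunsaturated fatty acids were among the lowest relative to canola. Fads1, the delta-5 desaturase that forms arachidonic acid and EPA, had log2 values of 8.53, 8.44 and 8.75 in fish/fungal pools, against 11.50, 11.75 and 11.44 in canola pools. The pools within a diet lay close together and the diets were far apart. Its level fell by 2.99 ± 0.26 on the log2 scale (SE, n = 3 pools a diet), a 7.93-fold difference (limma adjusted p = 2.4e-05). Fads2, the delta-6 desaturase that starts the pathway, had values of 8.89, 9.52 and 9.00 with fish/fungal oil, against 11.42, 11.35 and 11.53 with canola. The change was -2.30 ± 0.27 (adjusted p = 0.00024), and again no fish/fungal pool came near a canola pool.

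Elovl5, which elongates the products of these desaturases, had values of 10.27, 10.05 and 10.90 in fish/fungal pools and of 13.00, 13.26 and 12.88 in canola pools, a change of -2.64 ± 0.29 (adjusted p = 0.0002). Elovl2, the elongase of the last steps towards DHA, changed less, by -0.92 ± 0.11 (adjusted p = 0.00024). Its pools read 11.28, 11.51 and 11.17 with fish/fungal oil, against 12.31, 12.07 and 12.32 with canola. Both diets thus left Elovl2 among the brighter probe sets. Of the 14 tested genes of desaturation and elongation, these 4 fell and none rose, where 0.223% of all genes tested fell. The list median was -0.26 against 0.02 for all genes tested. The other 10 members lay between -0.36 and 0.18, and did not pass the test. Tecr, the reductase that completes each elongation cycle, had a change of -0.36 (adjusted p = 0.48). All 4 calls were kept whichever pool was left out. A second, dimmer probe set of Fads1 gave a change of -1.22, with a fish/fungal mean of 4.84, below the mean array median of 5.26.

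**Figure D1:**
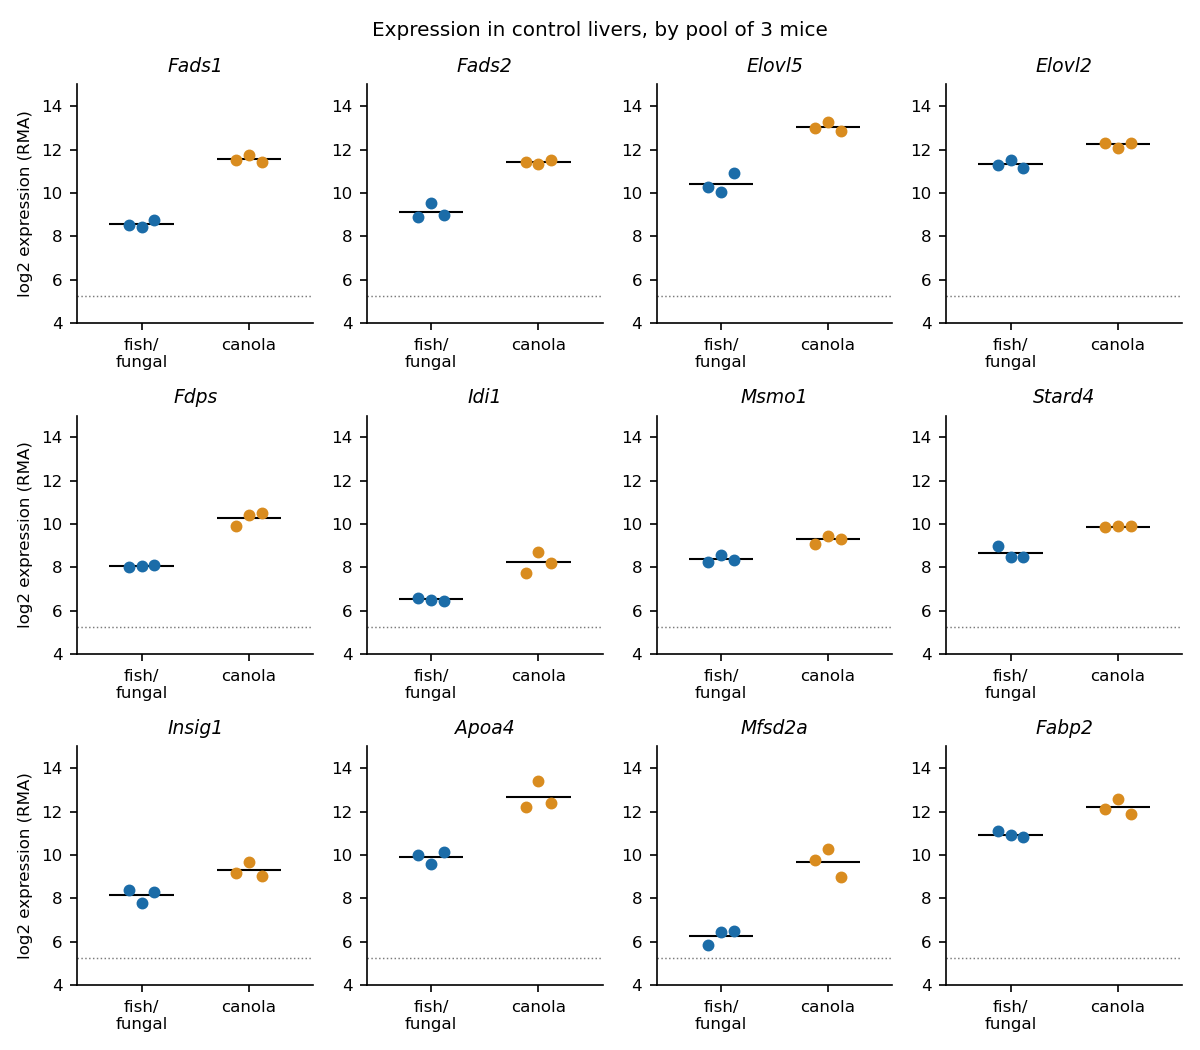
Log2 expression of 12 genes past the threshold in control livers. Each point is a pool of 3 mice, fish/fungal on the left and canola on the right, bars mark the mean of 3 pools and the dotted line the mean array median of 5.26. In every panel the 3 fish/fungal points lie below the 3 canola points, with the widest gap for Mfsd2a (-3.41).

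Mfsd2a, a transporter that carries DHA and other long-chain fatty acids in the form of lysophosphatidylcholine, showed the largest fall of all called genes. It had log2 values of 5.83, 6.43 and 6.50 in fish/fungal pools and of 9.74, 10.27 and 8.99 in canola pools. Canola livers were therefore well above the array's middle, while fish/fungal livers were only about 1 unit above it. The change was -3.41 ± 0.40, a 10.6-fold difference (adjusted p = 0.00024). Mfsd2a was the only called gene among 20 tested genes of phospholipid synthesis and remodelling, whose median change was -0.13.

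Among lipoprotein genes, 3 of 22 tested fell and none rose, where 0.223% of all genes tested fell. Apoa4, an apolipoprotein of chylomicrons and HDL that liver raises on fasting and on fat loading, had values of 10.01, 9.56 and 10.12 in fish/fungal pools, against 12.22, 13.40 and 12.42 in canola pools. Canola pool 2 was the highest, but the remaining canola pools also lay more than 2 units above every fish/fungal pool. The change was -2.78 ± 0.28 (adjusted p = 0.00011). Apoc2, the cofactor of lipoprotein lipase, changed by -0.59 ± 0.09 (adjusted p = 0.0037), with 12.00, 12.03 and 12.06 in fish/fungal pools, against 12.43, 12.80 and 12.64 in canola pools. Apoa5, which promotes clearance of plasma triglyceride, changed by -0.37 ± 0.07 (adjusted p = 0.033), but its call was lost when any pool except fish/fungal pool 3 was left out, with an adjusted p of 0.155 without canola pool 3. The list median was -0.07, and Apoa1, the main protein of HDL, had a change of -0.10 (adjusted p = 0.56).

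Fabp2, the intestinal-type fatty acid binding protein, also fell. Its log2 values were 11.08, 10.90 and 10.82 with fish/fungal oil and 12.10, 12.58 and 11.91 with canola oil, a change of -1.26 ± 0.16 (adjusted p = 0.00068). The liver-type protein Fabp1, one of the brightest genes on the array, had a change of -0.13 (adjusted p = 0.46). Acsl3, a long-chain acyl-CoA synthetase of lipid droplets, was called at -0.95 ± 0.18 (adjusted p = 0.028) with fish/fungal pools at 6.47, 6.33 and 5.91, against canola pools at 7.19, 7.24 and 7.12. Its call was kept in only 1 of the 6 fits that left out a pool, the one without fish/fungal pool 1 (adjusted p up to 0.156, without fish/fungal pool 3), and the mean of all its probe sets gave -0.57 (adjusted p = 0.187).

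Genes of cholesterol synthesis had lower values with fish/fungal oil throughout the pathway, although few passed the test. All 18 tested members had negative changes, with a median of -0.69, and 3 of them fell: Fdps, Idi1 and Msmo1. Of all genes tested, 0.223% fell. At an unadjusted p of 0.05, 14 of the 18 were lower, against 3.01% of all genes tested. Negative changes were seen in 5592 of all 12578 genes. Fdps makes farnesyl diphosphate, Idi1 makes its building block by isomerizing isopentenyl diphosphate, and Msmo1 removes methyl groups from the sterol ring. With only the 9 control arrays in the fit, a setting added after seeing the data, 8 of the 18 passed, all lower, where 52 of all 12578 genes did (0.413%). The 250 bases before the annotated start of Idi1, Msmo1 and Acacb, the last a gene of fatty acid synthesis, are shown because they are the genes that the naming rule takes from the 2 synthesis lists and that had an entry (RefSeq, GRCm38.p6, written along the gene's strand). Capitals mark CCAAT, or ATTGG where it lies on the other strand, the motif of NF-Y, a factor known to act beside SREBPs.
Idi1, chr13:8885356-8885605, plus strand: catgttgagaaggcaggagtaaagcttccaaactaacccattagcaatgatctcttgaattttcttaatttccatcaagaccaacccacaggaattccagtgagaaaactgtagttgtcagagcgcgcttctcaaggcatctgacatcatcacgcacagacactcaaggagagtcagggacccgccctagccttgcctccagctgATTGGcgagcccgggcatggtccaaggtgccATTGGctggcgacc
Msmo1, chr8:64733579-64733828, minus strand: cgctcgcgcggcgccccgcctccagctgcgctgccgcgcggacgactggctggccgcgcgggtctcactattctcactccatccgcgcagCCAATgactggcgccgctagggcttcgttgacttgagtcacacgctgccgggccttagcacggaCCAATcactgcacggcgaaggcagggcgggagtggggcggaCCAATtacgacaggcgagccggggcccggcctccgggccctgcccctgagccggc
Acacb, chr5:114165268-114165517, plus strand: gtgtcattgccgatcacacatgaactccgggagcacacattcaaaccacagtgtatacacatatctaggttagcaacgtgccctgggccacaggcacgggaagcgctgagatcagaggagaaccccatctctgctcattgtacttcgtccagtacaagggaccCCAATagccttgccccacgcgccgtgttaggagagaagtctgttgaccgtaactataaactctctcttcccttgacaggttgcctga

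The Msmo1 window held 3 copies of CCAAT, the first base of each 160, 96 and 55 bases before the start, the Idi1 window held 2 on the other strand and the Acacb window held 1. Shares were counted over genes with a window, a gene counting where any of its windows matched on either strand. CCAAT was present in 15 of 16 genes of the cholesterol list (93.8%) and in 14 of 20 of the fatty acid synthesis list (70.0%). It was present in 11 of 27 called genes (40.7%) and in 10133 of 27025 of all genes (37.5%). The core of the sterol response element, written TCACNCCAC with N for any base, was in none of the 3 windows shown. It was in 1 of the 16 cholesterol genes (Hmgcs1, 6.25%) and in 1 of the 20 of fatty acid synthesis (Mlxipl, 5.0%). Among called genes it was in 2 of the 27 (Camk1d and Itih3, 7.41%), and among all genes in 331 of 27025 (1.22%). With no TCACNCCAC in the windows shown, no match there overlaps a CCAAT, and a match describes letters, not binding.

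Fdps had log2 values of 8.03, 8.04 and 8.09 in fish/fungal pools, against 9.90, 10.41 and 10.52 in canola pools. The fish/fungal pools were nearly equal, and the change was -2.22 ± 0.36, a 4.67-fold difference (adjusted p = 0.0064). Without canola pool 3 the adjusted p was 0.0502. Idi1 had 6.60, 6.50 and 6.45 in fish/fungal pools and 7.76, 8.72 and 8.22 in canola pools, a change of -1.72 ± 0.31 (adjusted p = 0.022). Here the spread lay almost wholly among the canola pools. Msmo1 had 8.26, 8.59 and 8.33 with fish/fungal oil, against 9.08, 9.45 and 9.32 with canola, a change of -0.90 ± 0.18 (adjusted p = 0.037). The call of Idi1 was kept only without canola pool 1 and that of Msmo1 in none of the 6 fits that left out a pool (adjusted p up to 0.142 and 0.203, both without canola pool 2). The mean of all probe sets, which takes in a dim one for each gene, gave -1.07 for Fdps and -0.42 for Msmo1 (adjusted p = 0.122 for Msmo1).

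Other steps of the pathway, named after their values were seen, stood just outside the threshold. Sc5d, which acts late on the sterol ring, had a change of -0.65 (adjusted p = 0.055), Cyp51, the lanosterol demethylase, of -1.08 (adjusted p = 0.061), and Dhcr7, the last reductase, of -0.97 (adjusted p = 0.08). Sqle, the squalene epoxidase, read 5.12, 4.79 and 4.84 in fish/fungal pools and 5.26, 6.85 and 5.56 in canola pools. Its change of -0.98 (adjusted p = 0.61) thus rests largely on canola pool 2, and its dim fish/fungal level leaves that size uncertain. Srebf2, which encodes the SREBP of sterol synthesis, had a change of -0.13 (adjusted p = 0.97). The dim second probe sets of Fdps and Msmo1 had changes of 0.08 and 0.05.

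Sterol sensing, uptake and efflux gave 2 falls among 17 tested genes, where 0.223% of all genes tested fell. The list median was -0.04. Stard4, which carries cholesterol between membranes, had 8.98, 8.49 and 8.48 in fish/fungal pools, against 9.84, 9.88 and 9.89 in canola pools. The change was -1.22 ± 0.15 (adjusted p = 0.00028), and the canola pools were nearly identical. Insig1, the anchor that holds SREBPs in the endoplasmic reticulum, had 8.38, 7.76 and 8.29 with fish/fungal oil and 9.17, 9.69 and 9.03 with canola, a change of -1.15 ± 0.23 (adjusted p = 0.037). It lost its call without any 1 of the 6 pools (adjusted p up to 0.211, without canola pool 2) and with array weights (0.0574). Abcg5 and Abcg8, the paired exporters of sterols into bile, had changes of 0.50 and 0.44 in the other direction and did not pass the test (adjusted p = 0.46 and 0.58). Canola pool 2 was the lowest pool for both, at 10.81 and 9.53.

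Tmem97, a sterol-responsive membrane protein, and Rdh11, a retinal reductase, fell as well. Rdh11 had values of 5.61, 5.67 and 5.92 in fish/fungal pools, against 7.67, 7.99 and 7.51 in canola pools, a change of -1.99 ± 0.26 (adjusted p = 0.00075). Tmem97 changed by -0.67 ± 0.11 (adjusted p = 0.009). The call of Tmem97 was lost without canola pool 2 (adjusted p = 0.0515) or without fish/fungal pool 1.

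Genes of fatty acid synthesis had lower values as a list, with no single call. None of its 22 tested genes passed the test, 20 had negative changes, and the median was -0.80 against 0.02 for all genes tested. At an unadjusted p of 0.05, 16 were lower and none higher, against 3.01% and 3.55% of all genes tested. Negative changes were seen in 5592 of all 12578 genes. With only the 9 control arrays in the fit, 5 passed (Acacb, Acly, Acsl5, Fasn and Me1), all lower, and with only the 6 arrays compared 6 did. Over all genes, 52 (0.413%) and 48 (0.382%) passed in these fits, which lost 4 and 7 of the 33 calls. None of the list passed in any of the 6 fits that left out a pool. Acacb, the acetyl-CoA carboxylase of the mitochondrial surface whose promoter is shown above, had values of 6.60, 5.79 and 6.34 in fish/fungal pools and of 8.18, 8.42 and 8.07 in canola pools. The pools did not overlap, and the change of -1.98 ± 0.42 had an adjusted p of 0.058. After repeated quantile normalization that p was 0.0441. Scd1, the stearoyl-CoA desaturase that makes oleic acid, had 13.68, 13.54 and 12.94 with fish/fungal oil, against 14.21, 14.11 and 14.24 with canola, a change of -0.80 ± 0.18 (adjusted p = 0.081). This probe set lay near the top of the scale, and a second, dimmer one gave -2.15.

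Fasn, the fatty acid synthase, was named after its values were seen. It read 9.11, 8.14 and 8.27 in fish/fungal pools, against 10.39, 10.70 and 9.95 in canola pools, a change of -1.84 ± 0.47 (adjusted p = 0.16). Me1, the malic enzyme that supplies NADPH, had a change of -1.63 (adjusted p = 0.41), and Srebf1, which encodes the SREBP of fatty acid synthesis, had one of -0.46 (adjusted p = 0.71). The standard errors of Fasn and Me1, 0.47 and 0.54, were well above the 0.26 of Fads1, whose change was larger. With lard in control livers, Fasn read 11.40, 11.74 and 11.10, above both oils.

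**Figure D2:**
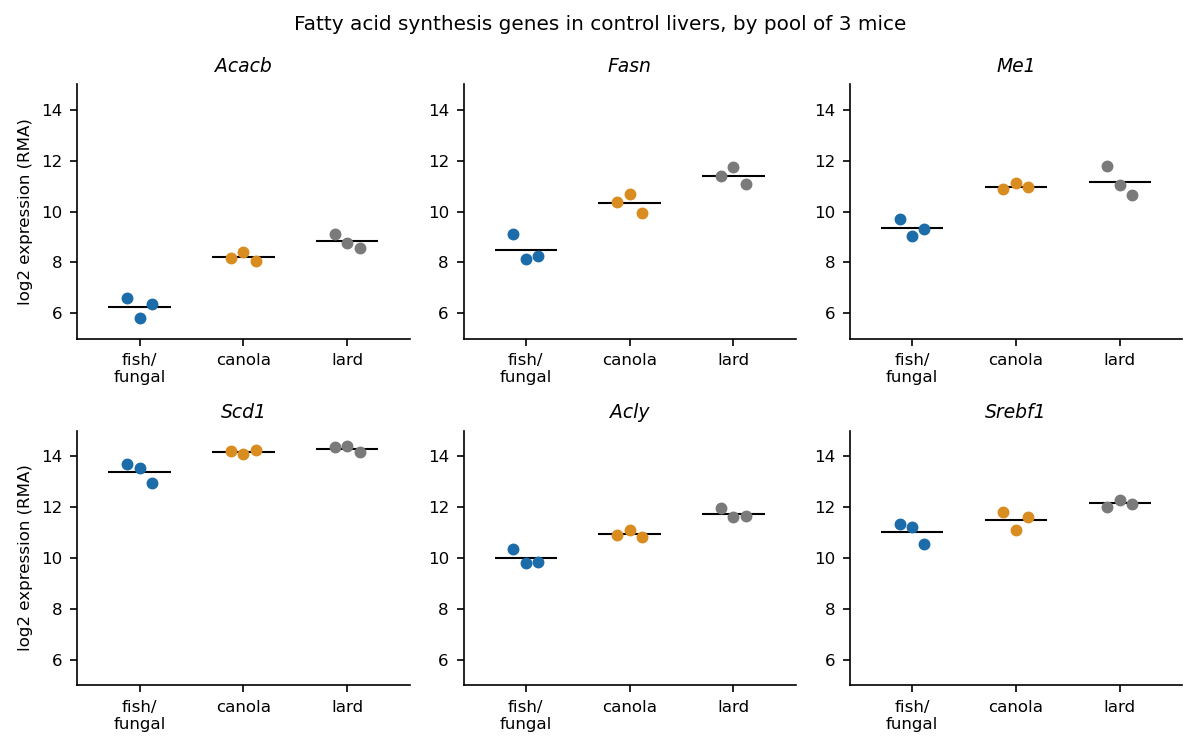
Log2 expression of 6 genes of fatty acid synthesis in control livers, by pool of 3 mice, for fish/fungal, canola and lard from left to right, with the mean of 3 pools as a bar. None of the 6 passed the threshold between fish/fungal and canola. Fish/fungal pools did not overlap canola pools for Acacb, Fasn, Me1, Scd1 and Acly, while Srebf1 pools overlapped. Pools did not overlap in 14 of the 22 tested genes of the list and in 11% of all genes tested. Fasn, Me1, Acly and Srebf1 were chosen after their values were seen.

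Fat breakdown and storage showed no calls. None of 22 tested genes of mitochondrial oxidation, 22 of peroxisomal oxidation, 21 of omega oxidation and other PPARalpha targets, or 27 of triglyceride synthesis and lipid droplets passed the test, with list medians of -0.10, -0.07, -0.13 and -0.20. Cpt1a, the carnitine transferase that admits fatty acids to mitochondria, had a change of -0.31 (adjusted p = 0.76). Acox2, a peroxisomal oxidase of branched chains and bile acid precursors, had 11.44, 11.63 and 11.41 in fish/fungal pools, against 11.30, 11.05 and 10.98 in canola pools, a change of 0.39 (adjusted p = 0.099). Plin2, the coat protein of lipid droplets, had 12.12, 11.67 and 12.25 with fish/fungal oil and 12.55, 12.84 and 12.81 with canola, a change of -0.72 (adjusted p = 0.12). Cyp4a14, a PPARalpha target named after its values were seen, varied too much among pools to order the oils, with 9.94, 12.06 and 12.47 in fish/fungal pools, against 11.63, 12.76 and 11.46 in canola pools.

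**Figure D3:**
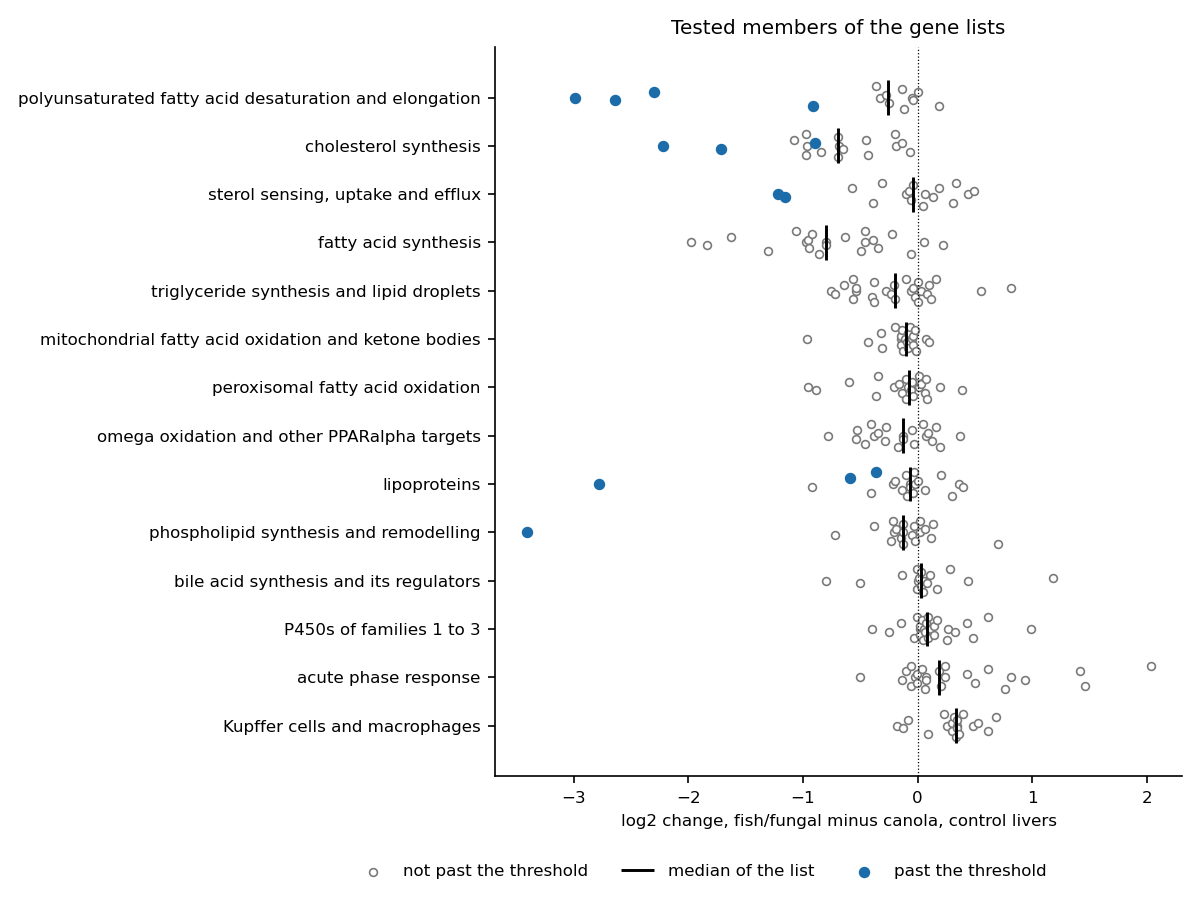
Log2 change, fish/fungal minus canola in control livers, for each tested member of 14 gene lists, with filled points past the threshold and a black bar at the list median. The medians of fatty acid synthesis (-0.80) and cholesterol synthesis (-0.69) lie furthest left, and the called members sit in 5 of the 14 lists.

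The 5 genes that rose came from several families. Obp2a, a lipocalin of the odorant-binding family, had 8.52, 8.92 and 7.90 in fish/fungal pools, against 5.38, 4.73 and 6.27 in canola pools. That is a 7.92-fold difference, 2.99 ± 0.34 on the log2 scale (adjusted p = 0.00024), and its canola level lay near the array median. It was the 1 call among 16 tested male-biased liver genes, whose median was -0.02. Wfdc12, a small secreted protease inhibitor of the WAP family, rose by 0.99 ± 0.18 (adjusted p = 0.017), with 7.21, 6.33 and 7.28 in fish/fungal pools and 5.89, 6.07 and 5.90 in canola pools. Fish/fungal pool 2 lay close to the canola pools.

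Car14, a membrane carbonic anhydrase, Wnk4, a kinase that regulates ion transport, and Itih3, a liver-secreted protein that binds hyaluronan, rose by less than 1 unit. Car14 had 10.02, 9.95 and 10.04 with fish/fungal oil, against 9.53, 9.02 and 9.40 with canola, a change of 0.68 ± 0.12 (adjusted p = 0.012). Wnk4 changed by 0.73 ± 0.15 (adjusted p = 0.039), and its canola mean was below the mean array median, so that this size is uncertain. Itih3 changed by 0.45 ± 0.09 (adjusted p = 0.027). Of the 5 rises, the call of Obp2a was kept whichever pool was left out. Wfdc12 lost its call without canola pool 1 or 3 or fish/fungal pool 1 or 3 (adjusted p up to 0.101, without fish/fungal pool 3), Car14 without canola pool 2 or fish/fungal pool 1 or 3 (up to 0.0644, fish/fungal pool 3), Itih3 without canola pool 2 or 3 or fish/fungal pool 2 or 3 (up to 0.154, fish/fungal pool 3) and Wnk4 without any 1 pool (up to 0.203, canola pool 2).

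Further falls belonged to varied functions. Paqr9, a membrane protein of the progestin and adipoQ receptor family, had 9.40, 9.39 and 9.40 in fish/fungal pools, against 10.55, 10.87 and 10.83 in canola pools, a change of -1.36 ± 0.16 (adjusted p = 0.00027). Aqp8, a water channel of hepatocytes, changed by -1.38 ± 0.25 (adjusted p = 0.022) and Camk1d, a calcium-dependent kinase, by -1.53 ± 0.30 (adjusted p = 0.037). Pstpip2, a membrane-bending protein of myeloid cells, changed by -1.15 ± 0.20 (adjusted p = 0.012). Atf5, a transcription factor of the stress response, was the 1 call among 24 tested genes of that response (-1.04 ± 0.18, adjusted p = 0.016). Sult1c2, a sulfotransferase, was the 1 call among 40 of conjugation and NRF2 targets (-0.91 ± 0.17, adjusted p = 0.026). Paqr9 was kept whichever pool was left out. Camk1d and Atf5 lost their calls without any pool other than canola pool 2 (adjusted p up to 0.181 and 0.0838, both without canola pool 3). Aqp8 lost its call without pool 2 or 3 of either diet (up to 0.135), Pstpip2 without pool 3 of either (up to 0.0829), and Sult1c2 without canola pool 1 or 2 or fish/fungal pool 2 or 3 (up to 0.153).

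The remaining called genes were named after their values were seen. Gpc1, a heparan sulfate proteoglycan of the cell surface, had 6.23, 6.29 and 6.51 in fish/fungal pools, against 7.19, 7.11 and 7.09 in canola pools, a change of -0.79 ± 0.11 (adjusted p = 0.0011). Vegfb, a growth factor of the VEGF family, changed by -0.77 ± 0.11 (adjusted p = 0.0014), and H2-Q10, a class I molecule that liver secretes, by -0.51 ± 0.07 (adjusted p = 0.0014). These calls were kept whichever pool was left out. Cldn2, a tight junction protein, changed by -0.71 ± 0.13 (adjusted p = 0.018) and Pter, a phosphotriesterase-related protein, by -0.58 ± 0.11 (adjusted p = 0.034). The call of Cldn2 was kept only without canola pool 2 and that of Pter only without fish/fungal pool 1 (adjusted p up to 0.115 and 0.178).

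Drug-metabolizing genes and bile acid genes gave no calls beyond Sult1c2. None of 26 tested P450s of families 1 to 3 passed the test, 21 having positive changes, with a median of 0.08. Positive changes were seen in 6986 of all 12578 genes tested. Cyp2c37, one of the P450s that oxidize arachidonic acid in mouse liver, had 12.04, 11.85 and 11.86 in fish/fungal pools and 11.85, 11.18 and 11.27 in canola pools, a change of 0.48 (adjusted p = 0.55). Ptgr1, a reductase that inactivates prostaglandins and leukotrienes, came closest among 19 genes of eicosanoid metabolism, at 0.64 (adjusted p = 0.091), and none of the 19 passed. None of 17 genes of bile acid synthesis passed, Cyp7b1, an oxysterol hydroxylase, having a change of 0.44 (adjusted p = 0.71). Bile acid and anion transport (16 genes), glucose metabolism (22), amino acid breakdown (28), interferon-stimulated genes (23), the circadian clock (18), the cell cycle (18) and female-biased genes (9) had none either, with list medians between -0.08 and 0.09.

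Acute phase genes had no call among 25 tested, and 9 were higher at an unadjusted p of 0.05, against 3.55% of all genes tested. Orm2, which encodes an acute phase glycoprotein of plasma, had 9.08, 8.49 and 11.36 in fish/fungal pools, against 7.83, 7.25 and 7.75 in canola pools, a change of 2.03 ± 0.49 (adjusted p = 0.12). Saa1, a serum amyloid, had 12.09, 11.34 and 13.52 with fish/fungal oil and 10.92, 10.78 and 10.86 with canola, a change of 1.46 ± 0.45 (adjusted p = 0.32). Without fish/fungal pool 2, Orm2 passed (2.61, adjusted p = 0.0233). Fish/fungal pool 3 was the highest for both genes, and the fish/fungal pools did not overlap the canola pools. The list median was 0.18.

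Markers of macrophages, and S100a8 and S100a9 among those of neutrophils, had higher values with fish/fungal oil, without a call. Of 19 tested markers of Kupffer cells and macrophages, none passed, 16 had positive changes, and 6 were higher at an unadjusted p of 0.05, with a median of 0.33. Of all 12578 genes tested, 6986 had positive changes and 3.55% were higher at that p, with a median of 0.02. Lyz2, a lysozyme, had a change of 0.68 (adjusted p = 0.31) and Mpeg1, a macrophage perforin, of 0.30 (adjusted p = 0.53). The summed linear level of the 19 markers ran from 15890 to 17350 in fish/fungal pools and from 10460 to 14600 in canola pools. That of 8 neutrophil markers, 4 of them tested, ran from 470.8 to 718.1 with fish/fungal oil, against 287.2 to 368.4 with canola. The tested 4 changed unevenly, by 1.398 for S100a8 and 0.964 for S100a9, with 0.0301 as the smallest change. S100a8 had log2 means of 7.553 with fish/fungal oil and 6.155 with canola, and S100a9 of 7.511 and 6.547. At these levels the 2 genes made up much of the neutrophil sum and of its difference between the oils. The sum therefore does not stand for all its markers. Markers of stellate, endothelial, lymphoid, red cell precursor and adipocyte lists overlapped between the oils in summed level, those of bile duct cells overlapped between 249.5 and 251, and those of pancreatic acinar cells between 1439 and 1443. The part of these cells in the differences above was not tested.

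The same oils were compared in livers without P450 reductase, which share no array with the control comparison. There 20 genes (0.159%) passed the test, 4 higher (0.0318%) and 16 lower (0.127%), and the count ran from 5 to 30 when 1 pool was left out. Of the 33 genes called in control livers, 31 had the same sign in knockout livers, against 60.7% of all genes, and 15 were also called there, which is 15 of the 20 calls in knockouts. Mfsd2a changed by -3.42 ± 0.40 in knockouts (adjusted p = 0.00054), Fads1 by -3.00 ± 0.26 (adjusted p = 2.3e-05) and Apoa4 by -2.63 ± 0.28 (adjusted p = 0.00025), beside -3.41, -2.99 and -2.78 in controls. Fdps also fell in knockouts (-1.89 ± 0.36, adjusted p = 0.042). The cholesterol list had a median of -0.54 in knockouts with 2 falls, and the fatty acid synthesis list one of -0.55 with none. Sizes were smaller in knockouts for 29 of the 33, but the genes were picked for their values in controls, so this count tests nothing.

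**Figure D4:**
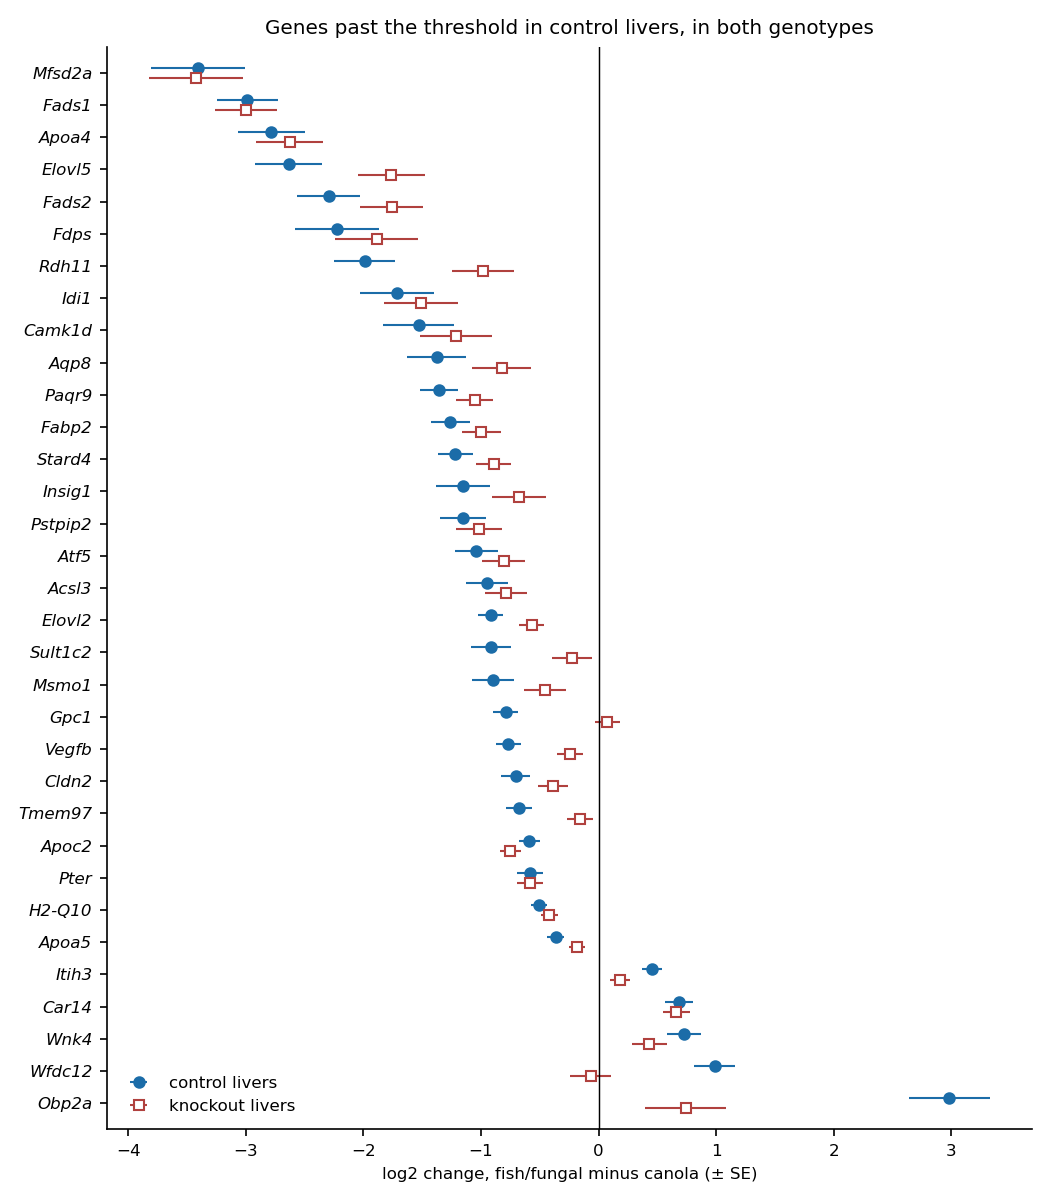
Log2 change, fish/fungal minus canola, of the 33 genes called in control livers, as filled circles for control livers and open squares for knockout livers, with SE bars from the fit over 18 arrays. Mfsd2a, Fads1 and Apoa4 nearly coincide in both genotypes, and Gpc1 (-0.79 and 0.07) and Wfdc12 (0.99 and -0.07) change sign.

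The difference between genotypes was tested for every gene, and 0 of 12578 passed with limma (smallest adjusted p 0.308), while 279 (2.22%) had an unadjusted p under 0.05. Gpc1 had the smallest p. In knockout livers it read 6.52, 6.44 and 6.58 with fish/fungal oil, against 6.44, 6.23 and 6.64 with canola, so that its knockout pools on either oil lay near the fish/fungal control pools. The control change minus the knockout change was -0.87 ± 0.15 (adjusted p = 0.31). Obp2a had 5.72, 5.71 and 5.85 in fish/fungal knockout pools and 4.50, 4.71 and 5.84 in canola knockout pools, a change of 0.74 beside 2.99 in controls (difference 2.24 ± 0.49, adjusted p of 1). The mean of the canola knockout pools was below the mean array median, so that the size of 0.74 is uncertain. The mean of the canola control pools, 5.46, lay near that median too, so that the size of 2.24 is also uncertain. The knockout pools of the oils overlapped, and the difference between genotypes did not pass the test.

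Lipoprotein lipase (Lpl) was called in knockouts and not in controls. It read 9.74, 9.70 and 9.43 in fish/fungal control pools, against 9.56, 9.42 and 9.30 in canola control pools, a change of 0.20 (adjusted p = 0.97). In knockouts it read 11.51, 11.53 and 11.55 with fish/fungal oil, against 10.70, 10.51 and 9.99 with canola, a change of 1.13 ± 0.15 (adjusted p = 0.0024). The difference between genotypes, -0.93 ± 0.22, did not pass (adjusted p of 1). Wfdc12, Susd1 and Rlf complete the 6 genes of smallest p, with differences of 1.06, -0.65 and 0.70. Without fish/fungal control pool 2, Wfdc12 passed the test of the difference (adjusted p = 0.00101).

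**Figure D5:**
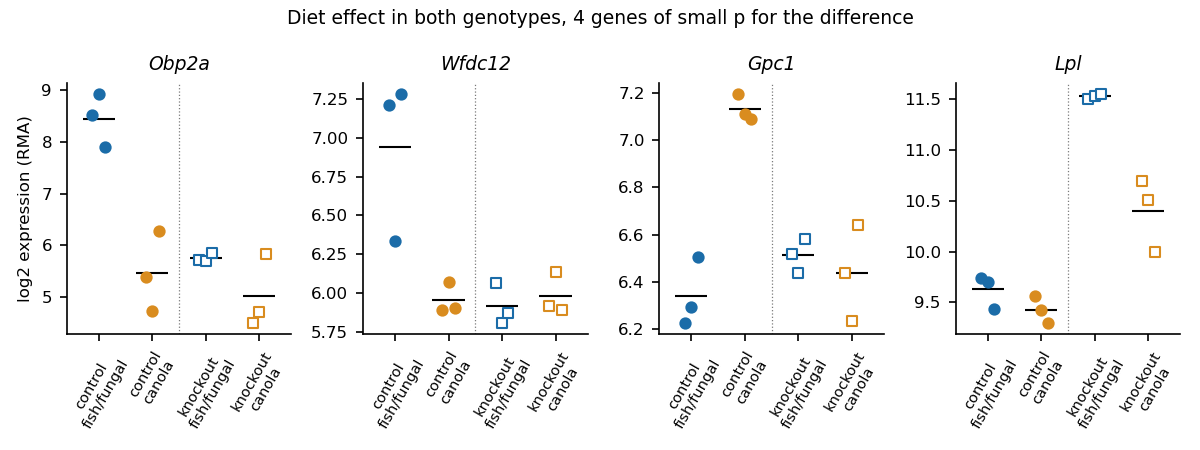
Log2 expression by pool of 3 mice for Obp2a, Wfdc12, Gpc1 and Lpl, filled circles for control livers and open squares for knockout livers, fish/fungal left of canola in each genotype, with bars at the mean of 3 pools and a separate axis for each gene. The oils do not overlap in control livers for Obp2a, Wfdc12 and Gpc1, with fish/fungal pool 2 close to the canola pools for Wfdc12, and they do not overlap in knockout livers for Lpl.

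Canola and lard, the remaining pair of diets for control livers, gave 0 calls among 12578 genes with limma, with 579 (4.6%) at an unadjusted p under 0.05. This pair shares the canola arrays with the comparison above, and fish/fungal against lard shares the fish/fungal arrays. Mfsd2a was at 10.36, 8.97 and 8.77 in lard pools, Fads1 at 11.99, 12.22 and 11.79, and Obp2a at 5.63, 5.70 and 5.16. For these genes the lard pools sat beside the canola pools and away from the fish/fungal pools. Canola minus lard was 0.30 for Mfsd2a, -0.43 for Fads1 and -0.04 for Obp2a, while fish/fungal minus lard was -3.11, -3.42 and 2.95. The fish/fungal comparison with lard gave 90 calls (0.716%), 12 higher (0.0954%) and 78 lower (0.62%). For Acacb, fish/fungal minus lard was -2.58 and canola minus lard -0.60.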

How the data were processed

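Affymetrix mouse arrays were used, and the authors deposited log2 values. RMA is the tool named by the submitters' processing notes, and its version is not given in the sources used here. The log2 scale was read from the values, 2.409 to 14.89. Of 45101 probe sets, 34945 had 1 gene symbol, 932 had several, 9160 were unnamed and 64 were controls. Symbols were updated by gene ID with the RefSeq table of GRCm38.p6 (34741 matched), which also gave the promoters. Each gene was read from its brightest probe set on average and tested if above the array median in at least 3 of 18 arrays (12578 of 18193 genes). There were no missing values and no identical arrays.

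limma 3.58.1 in R 4.3.3 fitted the 6 groups jointly (18 arrays, variance trend with intensity). P-values are two-sided with Benjamini-Hochberg adjustment over the genes tested, at 0.05. Errors of changes are SE from the fit. The number of arrays limits the precision. Genes named were the 15 largest rises and falls among calls with pools apart, members of lists by smallest p, and the 6 smallest p of the difference between genotypes. Other genes were named after their values were seen. Members and lists were chosen with earlier results of these data known. Alternatives changed the normalization, the filter, the probe sets, the variance model, the arrays fitted and a replicate block. The method was tested on simulated data.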

Additional observations from a re-analysis of the deposited data

How the results depend on the processing

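Of the 33 control calls, 14 were kept in every setting in which the gene was tested, 15 were kept whichever pool was left out, 11 were lost under at least 1 other setting, and no call changed direction. The count was 50 after centring each array (44 lower, 6 higher), 50 with array weights (35 lower, 15 higher), 52 with only the control arrays, a setting added after seeing the data, and 39 with a replicate block. With only the 6 arrays compared it was 48, and Apoa5, Apoc2, Car14, Insig1, Itih3, Pter and Wfdc12 lost their calls. With only the control arrays, Apoa5, Itih3, Pter and Wfdc12 lost theirs. Leaving out 1 pool gave 19 to 25 calls. Deviations of same-numbered pools of the 2 diets correlated at -0.294 to 0.1956, and over all pairs of groups at -0.3967 to 0.4577. With 3 pools a group, these values cannot settle whether the numbers pair the pools. In knockouts the 20 calls became 13 with a replicate block and 5 to 30 without 1 pool, with 7 without canola pool 1, 5 without canola pool 3, 8 without fish/fungal pool 1 and 6 without fish/fungal pool 3. The difference between genotypes gave 0 to 1 calls without 1 pool, the 1 without control fish/fungal pool 2, and the replicate block changed no call there. Canola against lard gave 0 throughout. Fish/fungal against lard gave 90, 70 with a replicate block and 41 to 67 without 1 pool, with 41 without lard pool 2, 52 without fish/fungal pool 2 and 51 without fish/fungal pool 3. Omissions of pools in the knockout and lard comparisons were added after seeing the data. The causes were not tested. Sizes that rest on levels below the mean array median are uncertain, and 5615 dim genes were not tested.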
